A study of Mus musculus with 6 samples.

Results

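Cyclic AMP (cAMP) is made from ATP by adenylyl cyclases and broken down by phosphodiesterases. It releases the catalytic subunits of protein kinase A (PKA) from their regulatory subunits, and the freed kinase phosphorylates CREB1, a transcription factor that works with the coactivators of the CRTC family, CREBBP and EP300. Salt-inducible kinases (SIKs) hold the CRTC proteins in the cytoplasm and are themselves inhibited by PKA. In hypothalamic neurons this route carries signals from hormone and neuropeptide receptors to immediate early genes and neuropeptide genes.

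The expression of 51 genes of this pathway was examined in the arcuate nucleus (ARC) of male mice, out of 22322 genes in the deposited table. The genes were chosen by symbol: the adenylyl cyclases (Adcy plus a number), the phosphodiesterases (Pde plus a number and a letter), the PKA catalytic (Prkaca, Prkacb) and regulatory (Prkar1, Prkar2) subunits, Creb1, Crem, Atf1, Crtc1 to Crtc3, Crebbp, Ep300 and Sik1 to Sik3. ARC tissue was cut by laser capture microdissection (LCM) from 20 µm brain sections of mice kept on a normal-chow diet (NCD, 16.5% fat, 3 samples) or on HFD, a diet rich in fat (60%, 3 samples). Feeding began at 4 weeks of age and lasted 16 weeks, and the study names C57BL/6J wild type mice. Mice carrying Kiss1-Cre and R26R-EYFP showed where Kiss1 neurons lie, and the genotype of the 6 samples is not given apart from these. The sources used here do not say whether a sample was 1 mouse or several, so the p-values measure the spread between these samples, which may be technical. The study asked which genes change with diet in the ARC, where Kiss1 neurons pace the release of luteinizing hormone.

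The total counts were 15925648, 9937632 and 6882449 in NCD1 to NCD3 and 8024664, 10479778 and 5171381 in HFD1 to HFD3. The deepest library was therefore an NCD sample and the shallowest an HFD sample. Mitochondrial genes took 3.20%, 4.24% and 6.57% of the counts in NCD1 to NCD3 and 4.16%, 3.51% and 5.77% in HFD1 to HFD3, in the reverse order of depth within each diet. Samples are compared in CPM, counts relative to the library total after TMM scaling. Genes are compared in FPKM, which also divides by transcript length. A count of 3 corresponded to between 0.180 and 0.564 CPM. Of 11 arcuate markers, 10 were higher in HFD and 1 (Pomc) lower, where 7160 of all 14188 genes tested were higher, with a median log2 fold change of 0.28. At an unadjusted p under 0.05, 2 of them (Cartpt and Tac2) were higher and none lower, and of all genes tested 1.21% were higher and 1.09% lower at that p. Their sum was 1413, 2374 and 1718 CPM in NCD1 to NCD3 and 2074, 1928 and 2363 CPM in HFD1 to HFD3, and here the diets overlapped. By mean, Pomc was the most abundant of them in NCD (756 CPM, Cartpt 549) and Cartpt in HFD (920 CPM, Pomc 589). Pomc stood at 559.7, 1209 and 500.0 CPM in NCD1 to NCD3 and 556, 651 and 559 CPM in HFD1 to HFD3 and Agrp at 27.2, 29.4 and 61.7 CPM in NCD1 to NCD3 and 44, 39.4 and 87.3 CPM in HFD1 to HFD3. Kiss1 itself stood at 0, 2.75 and 4.81 CPM in NCD1 to NCD3 and 0, 2.07 and 7.90 CPM in HFD1 to HFD3, so that it was at 0 in NCD1 and HFD1 and low in the other samples. Markers of magnocellular and paraventricular neurons were present as well. Their 5-gene list (Avp, Oxt, Sim1, Trh, Crh), in which no gene was at 0, summed to 2954, 5885 and 2618 CPM in NCD1 to NCD3 and 1412, 1485 and 1315 CPM in HFD1 to HFD3. Avp, which carried most of this sum, stood at 2382, 4888 and 1961 CPM in NCD1 to NCD3 and 1048, 944 and 830.3 CPM in HFD1 to HFD3. Avp and Oxt were lower in HFD at an unadjusted p under 0.05 (log2 fold changes -1.71 and -0.87), and Trh was higher (0.51). Sim1 (-0.60) and Crh (-0.31) did not pass that threshold. Of the pituitary markers, Prl and Gh were at 0 in all 6 samples. In bulk tissue, fewer cells of a type and less RNA per cell cannot be told apart.

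Few of the pathway genes differed between the diets, and those with the lowest p-values were the kinase gene Sik1 and the cyclase genes Adcy8 and Adcy6. Of the 51 genes, 44 had enough counts to be tested. Across these, 24 were higher and 20 lower in HFD, with a median log2 fold change of 0.01, against 0.00 over all 14188 genes tested. The change was smaller than 0.25 on the log2 scale in 29 of the 44 genes (65.9%), and in 66.6% of all genes tested. No pathway gene reached an adjusted p under 0.05 by edgeR's quasi-likelihood test, where 0.0564% of all genes tested did. DESeq2 called 1 of them (Sik1), and limma on log2 FPKM called 0. At an unadjusted p under 0.05, edgeR gave 3 of 44 (6.82%), against 2.3% of all genes tested. One of the 3 was higher in HFD, where the background was 1.21%, and 2 were lower, where it was 1.09%. All 3 also changed by more than 1.5-fold, as did 1.9% of all genes tested at that p. The diets did not overlap for 4 genes (9.09%: Sik1, Adcy8 and Prkar2b lower, Adcy6 higher), against 6.47% of all genes tested. In an exact two-sided permutation test each of these 4 had p = 0.1, the smallest that 3 against 3 samples can give.

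**Figure D1:**
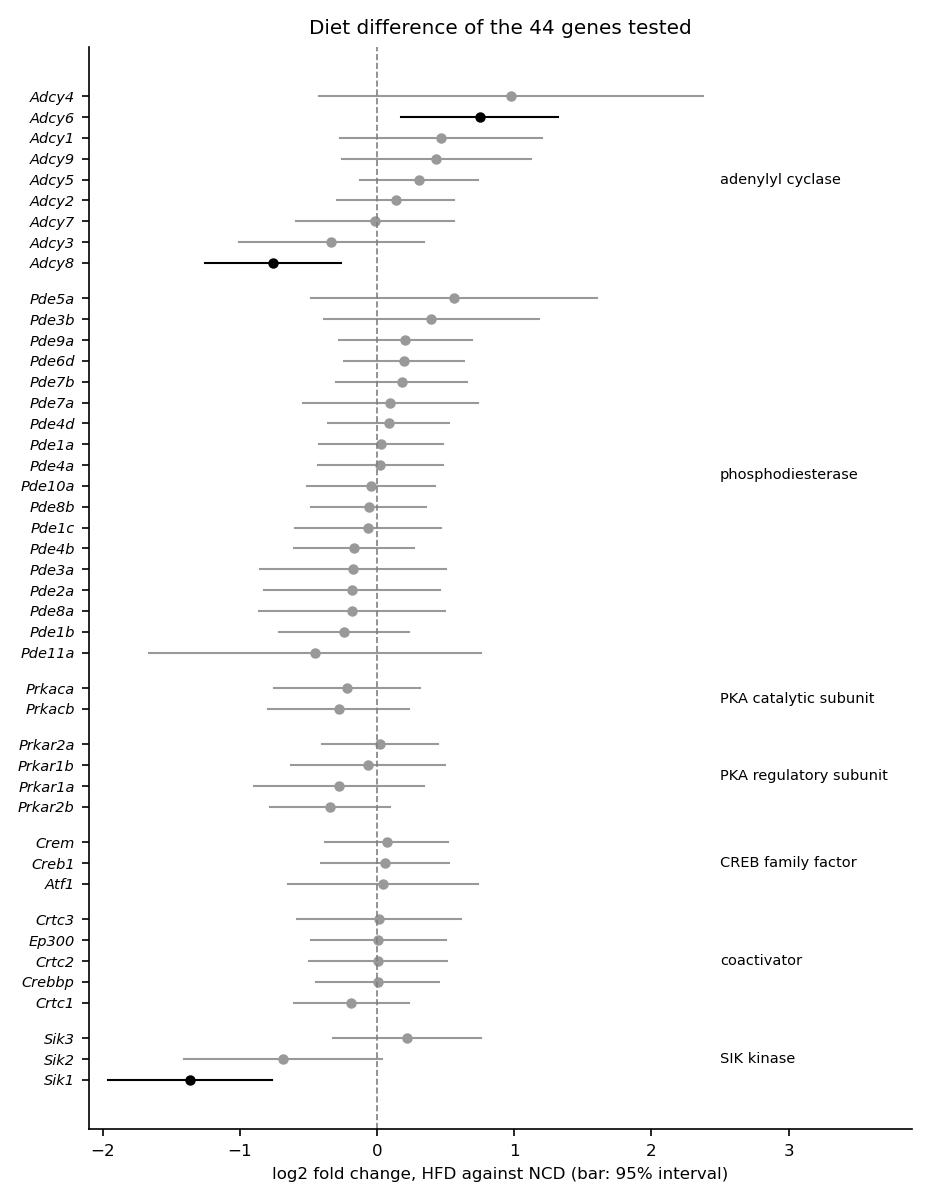
Log2 fold change of HFD against NCD for the 44 pathway genes tested, grouped by role, with 95% intervals from edgeR. Black marks the 3 genes with an unadjusted p under 0.05 (Sik1, Adcy8, Adcy6), and the intervals of all other genes include 0.

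Sik1 showed the largest and best supported difference among the pathway genes. It encodes a kinase of the CRTC coactivators and is itself transcribed in response to cAMP. Sik1 (ENSMUSG00000024042, GRCm38 chr17:31844250-31855804, minus strand) stood at 17.9, 24.4 and 27.5 CPM in NCD1 to NCD3 and 9.82, 6.70 and 10.7 CPM in HFD1 to HFD3, from raw counts of 297, 240, 183, 79, 68 and 57 in the same order. The lowest NCD sample lay above the highest HFD sample. The means were 23.3 ± 4.93 for NCD against 9.08 ± 2.11 for HFD (CPM ± SD, n = 3 each). This was a log2 fold change of -1.36 (SE 0.28, 95% interval -1.96 to -0.76), or 2.57-fold lower in HFD. By edgeR's p it ranked 17 of 14188 genes, and the adjusted p was 0.254. The call depended on the model, since the adjusted p was 0.0082 with DESeq2 and 0.0045 when log2 total count was a covariate in edgeR, where the log2 fold change was -1.60. Within each diet Sik1 was lower in deeper libraries.

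The other SIK genes had smaller log2 fold changes, and their difference from Sik1 was not tested. Sik3, the most abundant of the family with a mean of 14.6 FPKM, against 3.57 for Sik1 and 2.08 for Sik2, stood at 40.8, 66 and 74.2 CPM in NCD1 to NCD3 and 68.2, 56.9 and 85 CPM in HFD1 to HFD3. Its diets overlapped, and the log2 fold change was 0.22 (SE 0.25). Sik2 was 12.6, 8.65 and 8.73 CPM in NCD1 to NCD3 and 4.35, 5.91 and 8.65 CPM in HFD1 to HFD3. HFD1 and HFD2 lay below every NCD sample and HFD3 was just within the NCD range, with a log2 fold change of -0.69 (SE 0.33, adjusted p = 0.999, edgeR). An exon of Sik2 overlaps Ppp2r1b on the opposite strand, and the strand setting of the counting is not given, so reads in the overlap may count for either gene.

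**Figure D2:**
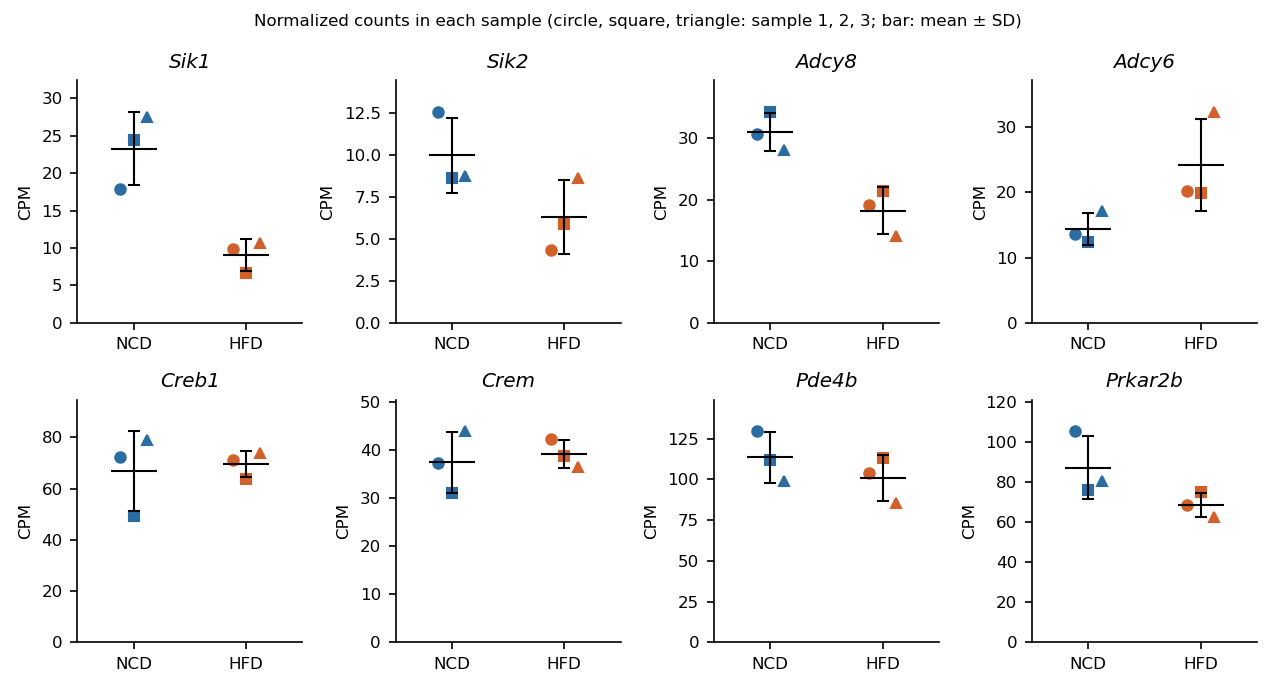
CPM of 8 pathway genes in each sample, with the mean and SD of each diet (n = 3). The diets are separate for Sik1, Adcy8, Adcy6 and, narrowly, Prkar2b, and they overlap for Sik2, Creb1, Crem and Pde4b.

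Among the adenylyl cyclases, the calcium-stimulated Adcy8 was lower and the calcium-inhibited Adcy6 higher on HFD. No difference between these classes was tested. Adcy1 and Adcy3, also calcium-stimulated, had log2 fold changes of 0.47 (SE 0.34) and -0.34 (SE 0.31), and Adcy5, also calcium-inhibited, 0.30 (SE 0.20). Adcy8 (ENSMUSG00000022376, GRCm38 chr15:64697084-64922296, minus strand) stood at 30.7, 34.3 and 28.1 CPM in NCD1 to NCD3 and 19.1, 21.5 and 14.1 CPM in HFD1 to HFD3, and all 3 HFD samples lay below the NCD samples. The means were 31 ± 3.10 for NCD against 18.2 ± 3.77 for HFD (CPM ± SD, n = 3 each). Its log2 fold change was -0.76 (SE 0.23, 95% interval -1.25 to -0.26, adjusted p = 0.999, edgeR). Adcy6 (ENSMUSG00000022994, GRCm38 chr15:98589973-98610076, minus strand) stood at 13.5, 12.4 and 17.2 CPM in NCD1 to NCD3 and 20.3, 19.9 and 32.4 CPM in HFD1 to HFD3. Here all HFD samples were above the NCD samples, and HFD3, the shallowest library, was well above HFD1 and HFD2. The means were 14.4 ± 2.47 for NCD against 24.2 ± 7.09 for HFD (CPM ± SD, n = 3 each), a log2 fold change of 0.75 (SE 0.26, 95% interval 0.18 to 1.32, adjusted p = 0.999, edgeR). Without HFD3 the Adcy6 log2 fold change was 0.49 and without NCD2 it was 0.65, and in both cases the unadjusted p was no longer under 0.05. An exon of Adcy6 also overlaps the opposite-strand gene Gm29331.

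The balance of the 2 cyclase genes differed between the diets on the length-scaled FPKM values. The ratio of Adcy8 to Adcy6 was 1.60, 2.33 and 1.41 in NCD1 to NCD3 and 0.818, 0.788 and 0.376 in HFD1 to HFD3. It was above 1 in all NCD samples and below 1 in all HFD samples. As both genes were picked for their differences, the ratio is a description with no test.

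Other cyclases carried most of the cyclase FPKM. Adcy3, a calcium-stimulated form found in neuronal primary cilia, was the most abundant with 25, 14.1 and 8.84 FPKM in NCD1 to NCD3 and 13.9, 13.7 and 10.2 FPKM in HFD1 to HFD3. NCD1, the deepest library, held the highest value, and the other samples of the diets overlapped. In CPM its log2 fold change was -0.34 (SE 0.31, adjusted p = 0.999, edgeR), and without NCD1 it was 0.12. Next came Adcy2 (mean 10.6 FPKM), which Gβγ stimulates, and Adcy5 (mean 10.1 FPKM), which calcium inhibits. Adcy5 had a log2 fold change of 0.30 (SE 0.20, adjusted p = 0.999, edgeR). The remaining forms Adcy1, Adcy2, Adcy4, Adcy7 and Adcy9 had log2 fold changes between -0.01 (Adcy7) and 0.98 (Adcy4, SE 0.64, on at most 38 counts), none with an unadjusted p under 0.05. The Adcy4 value rested on HFD2, the library with 38 counts, and was 0.19 without it. It was 0.017 with limma on log2(FPKM + 1), and 1.61 with log2 total count as a covariate, where the unadjusted p was under 0.05. Adcy10, the soluble bicarbonate-stimulated cyclase, had 6 and 4 counts in NCD1 and NCD2 and none elsewhere, and was not tested in the main fit. With every gene of at least 1 count tested, its unadjusted p by edgeR was under 0.05.

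**Figure D3:**
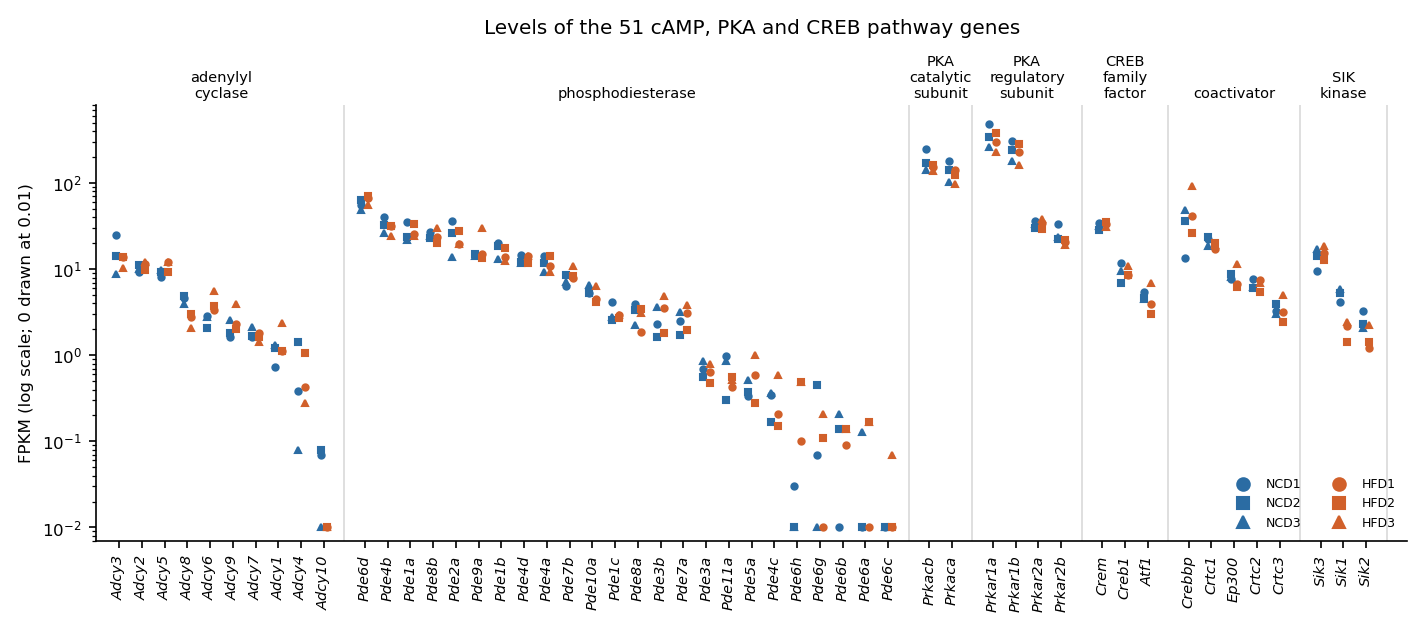
FPKM of all 51 pathway genes in each sample on a log axis, ordered by mean within each role, with values of 0 drawn at 0.01. Prkar1a, Prkar1b, Prkacb and Prkaca had the highest means, led by Prkar1a with 334 FPKM.

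None of the phosphodiesterase genes differed between the diets by an unadjusted p under 0.05. Of 24 genes, 18 were tested, 9 higher and 9 lower in HFD, and 15 of the 18 (83.3%) changed by less than 0.25 on the log2 scale, against 66.6% of all genes tested. The most abundant by symbol was Pde6d, which encodes a prenyl-binding protein rather than an enzyme, at 62.7, 75.2 and 58.8 CPM in NCD1 to NCD3 and 77.4, 84.7 and 62.8 CPM in HFD1 to HFD3. Its diets overlapped, with a log2 fold change of 0.19 (SE 0.20). Of the enzymes, the cAMP-specific Pde4b was the most abundant (mean 31.3 FPKM). Pde4b stood at 129, 112 and 98.7 CPM in NCD1 to NCD3 and 104, 113 and 85.6 CPM in HFD1 to HFD3, again with overlapping diets and a log2 fold change of -0.17 (SE 0.20, 95% interval -0.61 to 0.27). Pde4d, of the same subfamily, stood at 37.3, 34.8 and 34 CPM in NCD1 to NCD3 and 40, 31.4 and 41.2 CPM in HFD1 to HFD3, with a log2 fold change of 0.08 (SE 0.20, 95% interval -0.36 to 0.52).

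The enzymes were also summed by substrate class. The cAMP-specific enzymes (Pde4, Pde7 and Pde8) summed to 109.6, 93.5 and 84.6 FPKM in NCD1 to NCD3 and 94.1, 91.9 and 96.3 FPKM in HFD1 to HFD3. The enzymes that take both cAMP and cGMP (Pde1, Pde2, Pde3, Pde10 and Pde11) summed to 105, 78.6 and 63.4 FPKM in NCD1 to NCD3 and 70.8, 88.5 and 71.6 FPKM in HFD1 to HFD3. The cGMP-specific enzymes (Pde5, Pde9 and the Pde6 forms other than Pde6d) summed to 15.6, 15.9 and 15.05 FPKM in NCD1 to NCD3. In HFD1 to HFD3 they summed to 15.8, 14.5 and 31.9 FPKM, with HFD3 well above every other sample. Pde9a carried most of the HFD3 sum, at 29.8 FPKM. Its CPM per FPKM, which depends on the transcript length assumed, was 1.45 in HFD3 and 1.87 to 2.02 elsewhere. In CPM, Pde9a stood at 42.1 in HFD3 and between 27.3 and 30.5 in the other samples. In each of these sums the diets overlapped. The highest log2 fold changes were those of Pde5a (0.56, SE 0.48) and Pde3b (0.40, SE 0.36), and the lowest that of Pde11a (-0.45, SE 0.56), all with intervals that include 0. Without HFD3 the Pde5a and Pde3b values were 0.10 and 0.087, and without NCD1 the Pde11a value was 0.015. Pde1a, Pde2a and Pde8b, at means of 27.3, 23.8 and 24.7 FPKM, were the next most abundant enzymes. The photoreceptor forms Pde6a, Pde6b, Pde6c, Pde6g and Pde6h had at most 6 counts in any sample and, with Pde4c, were not tested in the main fit.

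Of all the pathway genes, Prkar1a, Prkar1b, Prkacb and Prkaca had the highest mean FPKM, and Prkar1a, Prkar1b and Prkacb ran with the depth of the libraries. Prkar1a, the main type I regulatory subunit, stood at 1523, 1119 and 835 CPM in NCD1 to NCD3 and 941, 1243 and 685 CPM in HFD1 to HFD3. Prkacb, a catalytic subunit, stood at 1004, 744 and 634 CPM in NCD1 to NCD3 and 655, 720.0 and 584 CPM in HFD1 to HFD3. In both diets the deepest library had the highest value and the shallowest the lowest, for both genes. The log2 fold changes were -0.28 (SE 0.29, adjusted p = 0.999, edgeR) for Prkar1a and -0.28 (SE 0.24, adjusted p = 0.999, edgeR) for Prkacb. With log2 total count as a covariate, these values were 0.06 for Prkar1a and -0.065 for Prkacb, and without NCD1 they were -0.041 and -0.088. The second catalytic gene, Prkaca, had a log2 fold change of -0.22 (SE 0.25), and the type I gene Prkar1b -0.07 (SE 0.26).

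Type I regulatory subunits prevailed over type II in every sample. The FPKM ratio of Prkar1a and Prkar1b to Prkar2a and Prkar2b was 11.3, 11.3 and 7.76 in NCD1 to NCD3 and 9.71, 12.9 and 6.90 in HFD1 to HFD3, with overlapping diets. Prkar2b, the type II form that is prominent in brain and fat, was the only subunit gene whose diets did not overlap, at 105, 75.9 and 80.5 CPM in NCD1 to NCD3 and 68.4, 74.9 and 62.7 CPM in HFD1 to HFD3. The gap was narrow, and the log2 fold change of -0.35 (SE 0.20) had an adjusted p of 0.999 by edgeR. The log2 fold change was -0.20 without NCD1, -0.14 without both NCD1 and HFD3, and -0.21 with log2 total count as a covariate. Prkar2a had a log2 fold change of 0.02 (SE 0.19).

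Other pathway genes ran with depth too. The CPM rose with total count within both diets in 8 of the 44 genes (18.2%: Prkacb, Prkar1a, Prkar1b, Adcy3, Pde1b, Pde2a, Pde4a and Pde4b), against 12.9% of all genes tested. It fell with total count in both diets in 6 genes (13.6%: Atf1, Sik1, Sik3, Adcy9, Ep300 and Pde5a), against 12.5% of all genes. Within a diet the order of depth was also the reverse order of the mitochondrial share, and the 2 cannot be told apart.

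**Figure D4:**
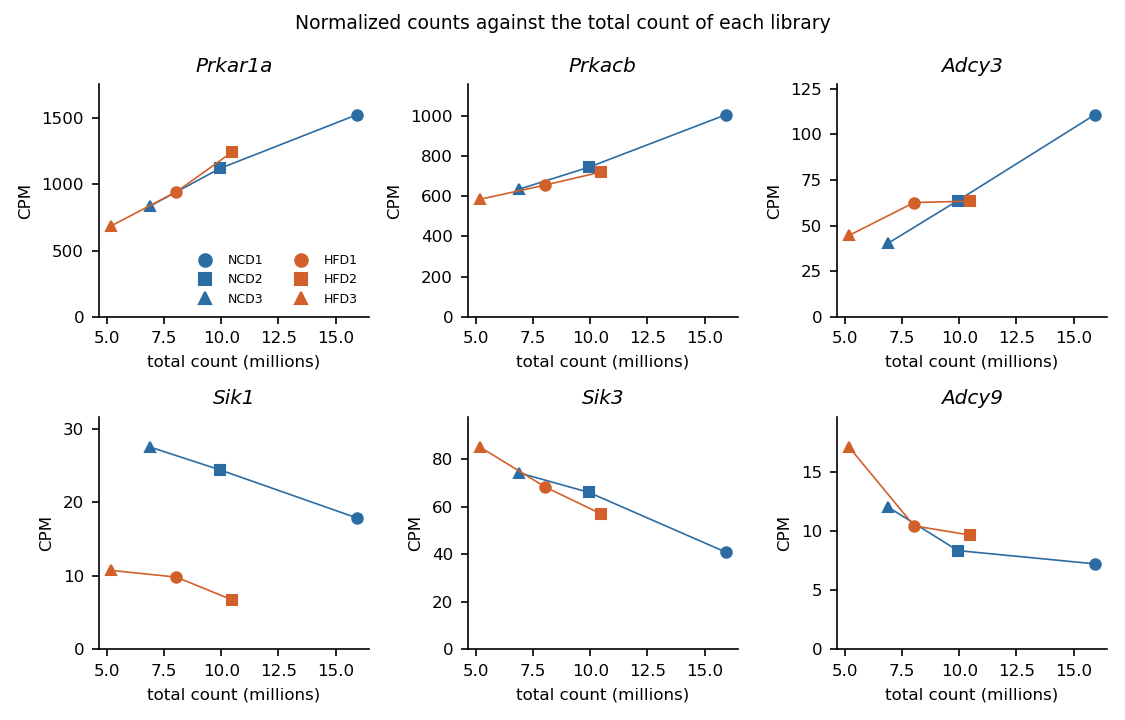
CPM of 6 pathway genes against the total count of each library, with lines joining the samples of a diet. Prkar1a, Prkacb and Adcy3 rise and Sik1, Sik3 and Adcy9 fall with depth in both diets, while the 3 HFD values of Sik1 lie below the 3 NCD values.

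None of the transcription factor and coactivator genes had an unadjusted p under 0.05. Creb1 (ENSMUSG00000025958, GRCm38 chr1:64532645-64604548, plus strand) stood at 72.1, 49.3 and 79 CPM in NCD1 to NCD3 and 71, 63.8 and 73.9 CPM in HFD1 to HFD3. NCD2 was the lowest sample, and the diets overlapped. Its log2 fold change was 0.06 (SE 0.22, 95% interval -0.41 to 0.53, adjusted p = 0.999, edgeR), an interval that leaves room for a change of either sign. Crem, which encodes activator and repressor forms and was the most abundant factor by FPKM, stood at 37.3, 31.1 and 43.9 CPM in NCD1 to NCD3 and 42.4, 38.7 and 36.5 CPM in HFD1 to HFD3, with a log2 fold change of 0.07 (SE 0.21). The table gives 1 value per gene, so the inducible repressor form made from an internal Crem promoter was not measured apart. Atf1, a relative of CREB1, had a log2 fold change of 0.04 (SE 0.32). These are transcript levels, and phosphorylation of CREB1 was not measured by this assay.

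All 5 coactivator genes changed by less than 0.25 on the log2 scale, as did 66.6% of all genes tested. Crebbp, the histone acetyltransferase that binds phosphorylated CREB1, stood at 101, 118 and 133 CPM in NCD1 to NCD3 and 104, 109.9 and 139 CPM in HFD1 to HFD3, with a log2 fold change of 0.00 (SE 0.21, 95% interval -0.44 to 0.45). Its CPM per FPKM varied 4.95-fold between samples, so its FPKM values are not compared. The remaining values were 0.01 (SE 0.23) for its relative Ep300, -0.19 (SE 0.19) for Crtc1, the most abundant CRTC gene at a mean of 20.1 FPKM, 0.01 (SE 0.23) for Crtc2 and 0.01 (SE 0.28) for Crtc3.

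The 3 lists of genes upstream and beside the pathway each held 1 gene with an unadjusted p under 0.05, where 2.3% of all genes tested had one. Of 33 G protein and receptor genes, 26 were tested, and Mc3r, a melanocortin receptor that raises cAMP, was the one with such a p. Mc3r stood at 19, 19.1 and 17.5 CPM in NCD1 to NCD3 and 23.1, 26.3 and 29 CPM in HFD1 to HFD3, without overlap, with a log2 fold change of 0.49 (SE 0.21, adjusted p = 0.999, edgeR). Of 40 genes for PKA anchors, inhibitors, phosphatases and other effectors, 38 were tested. Only Ppp2ca, the catalytic subunit of phosphatase PP2A, had such a p (adjusted p = 0.999, edgeR). It stood at 158, 123 and 218 CPM in NCD1 to NCD3 and 353, 141 and 339 CPM in HFD1 to HFD3, where HFD1 and HFD3 were above and HFD2 was within the NCD range, with a log2 fold change of 0.74 (SE 0.33). Of 20 genes for other CREB and ATF factors and the regulators listed with them, 19 were tested, and Hdac9, a class IIa histone deacetylase, was lower by the same measure (log2 fold change -0.67, SE 0.24, adjusted p = 0.999, edgeR). These p-values depended on the setting. In the 16 alternatives the unadjusted p was under 0.05 in 6 for Mc3r, in 8 for Ppp2ca and in 11 for Hdac9, and leaving out any 1 sample took that of Mc3r over 0.05. For Ppp2ca it was over 0.05 without NCD1, NCD2, HFD1 or HFD3, and with log2 total count as a covariate the log2 fold change was 0.43. For Hdac9 it was over 0.05 without NCD1 or HFD1. The median log2 fold changes of the 3 lists were 0.04, -0.07 and 0.09.

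Some known transcriptional targets of CREB were lower on HFD. Of 30 listed targets, all of them tested, 6 fell at an adjusted p under 0.05 by edgeR, against 0.0564% of all genes tested, and none rose. At an unadjusted p under 0.05, 13 were lower and 1 was higher, where the backgrounds were 1.09% and 1.21% of all genes tested. For 15 of the 30 the diets were without overlap (background 6.47%), and the median log2 fold change was -0.59. The adjusted calls varied with the samples kept. Nr4a1 alone was called without NCD2, without HFD1 or without HFD2, and 3 genes (Egr1, Fos, Nr4a1) without HFD3. These fits also had 1 sample fewer, so a lost call does not show that it rested on that library. In the 16 alternatives the log2 fold change ran from -2.971 to -2.171 for Fos and -2.763 to -2.097 for Egr1. It ran from -1.991 to -1.519 for Junb and, more widely, from -3.655 to -1.506 for Egr2. The count of lower genes at an unadjusted p under 0.05 stayed between 10 and 15 with any 1 sample left out. Many of these genes also respond to routes other than cAMP, and the list was drawn up with earlier results of these samples known, so its counts are not independent evidence of a direction.

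The 6 were immediate early genes. Nr4a1, an orphan nuclear receptor, stood at 70.1, 92 and 73.3 CPM in NCD1 to NCD3 and 8.82, 11.9 and 13.2 CPM in HFD1 to HFD3, a log2 fold change of -2.80 (SE 0.24, adjusted p = 0.000503, edgeR). Fos, an AP-1 subunit, stood at 80.2, 149 and 121 CPM in NCD1 to NCD3 and 16.9, 17.7 and 32.7 CPM in HFD1 to HFD3, a log2 fold change of -2.39 (SE 0.30, adjusted p = 0.0108, edgeR). In both genes every HFD sample lay far below every NCD sample. Egr2, Egr1, Junb and Arc fell by 3.49, 2.27, 1.74 and 1.61 on the log2 scale (adjusted p = 0.0108, 0.0108, 0.0136 and 0.0459, edgeR). The Egr2 and Arc calls were lost with limma on both FPKM scales, where the log2 fold change of Egr2 was -1.51 with a pseudocount of 1, and that of Arc also with library totals only and with a mean of at least 50 counts. Without NCD1, or without both NCD1 and HFD3, the Arc call was lost as well. The log2 fold change of Arc stayed between -1.74 and -1.34 in all 16 alternatives. Only Arc, a synaptic protein gene, is not a transcription factor among them.

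Another 7 targets were lower by edgeR at an unadjusted p under 0.05, without an adjusted p under 0.05 in that fit. Their log2 fold changes were -2.07 for Nr4a3, -1.52 for Fosb, -1.45 for Btg2, -1.16 for Dusp1, -1.08 for Nr4a2, -0.57 for Per1 and -0.57 for Pcsk1. Of them, Btg2, Dusp1 and Nr4a3 had an adjusted p under 0.05 with DESeq2 and with the replicate block. Btg2 and Nr4a3 were also called with log2 total count as a covariate, and with every gene of at least 1 count tested. Inhba, the activin subunit gene, was higher (1.16, SE 0.46). Single libraries moved 4 of these values by over 1.5 times. Without HFD3 the values were -2.42 for Fosb and 0.72 for Inhba, and without HFD2 they were -0.99 for Fosb and -0.71 for Nr4a2. The Nr4a2 value was -0.47 without NCD3, and the Pcsk1 value was -0.37 without NCD1. The log2 fold changes of the other 16 targets ran from -1.27 (Npas4, SE 0.86) to 0.50 (Id1, SE 0.24). Sik1 is a cAMP-induced early gene as well, and its log2 fold change of -1.36 lay among those of the fallen targets, while that of Crem was 0.07. Avp and Oxt, given above, ran in the same direction as Sik1 and the early genes across the diets and Trh in the other, and their part in the result was not tested. Other markers with an unadjusted p under 0.05 were Cartpt, Tac2, Trh, Gfap, Cga, Crym and Col23a1, all higher in HFD, and Avp, Oxt, Acta2 and Cldn5, all lower.

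**Figure D5:**
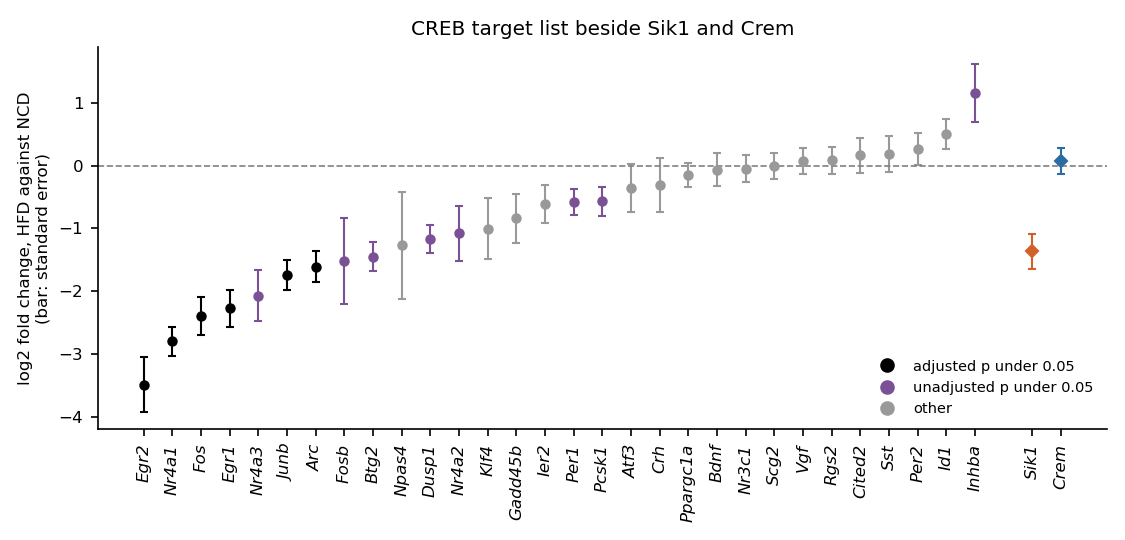
Log2 fold change of HFD against NCD for the 30 listed CREB targets, with Sik1 and Crem from the pathway at the right, and bars of 1 standard error. The 6 genes in black have an adjusted p under 0.05 by edgeR, all lower in HFD. Sik1 (-1.36) lies in their direction whereas Crem (0.07) lies near 0.

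CREB binds the cAMP response element, and promoter sequences were searched for it. Windows of 250 bases before to 50 after each RefSeq start (GRCm38.p6) were at hand for 39 of the 51 pathway genes (76 windows) and for 22 of the 30 targets (33 windows). The windows for Sik1, Adcy8, Adcy6 and Crem were not used here. The full 8-base element TGACGTCA reads the same on both strands and contains the core TGACG on each of them. It lay in the windows of 1 pathway gene, Prkar1a. That was 2.63% of the pathway windows against 1.79% of all 32851 windows, or 2.56% of the pathway genes against 2.03% of all 27025 genes with a window. The core, TGACG or CGTCA, lay in 25.0% of the pathway windows and 20.8% of all windows. Counted by gene it lay in 43.6% of the pathway genes and 23.0% of all genes, and the pathway genes had more windows per gene. In the target list the full element lay in 15.2% of windows (22.7% of genes) and the core in 66.7% of windows (86.4% of genes). A match in these letters is a description of the window and not a measured binding site.

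The sequences below show the element as 30 bases each with the motif in capitals, in Prkar1a for its full form, in Prkacb as the more abundant of the catalytic genes, in the 5 targets with the full form, and in the targets with an adjusted p under 0.05 whose windows were searched (Fos, Junb, Egr2 and Nr4a1, each with a core). The windows of the other called targets, Egr1 and Arc, were not used here. Other genes with a core, among them Prkar1b, Prkaca, Fosb, Nr4a2, Nr4a3 and Per1, are not printed. All lie upstream of a RefSeq start, and Prkar1a, Prkacb and Egr2 have several starts. The sites of the pathway genes are at chr11:109650889-109650918 (plus strand) for Prkar1a and chr3:146813031-146813060 (minus strand) for Prkacb. The full elements of targets are at chr17:26508597-26508626 (minus strand) for Dusp1, chr1:134079303-134079332 (minus strand) for Btg2, chr13:75089768-75089797 (plus strand) for Pcsk1, chr1:79440076-79440105 (minus strand) for Scg2 and chr16:23890874-23890903 (minus strand) for Sst. The cores of the fallen early genes are at chr12:85473812-85473841 (plus strand) for Fos, chr8:84978837-84978866 (minus strand) for Junb, chr10:67537802-67537831 (plus strand) for Egr2 and chr15:101266794-101266823 (plus strand) for Nr4a1.
Prkar1a: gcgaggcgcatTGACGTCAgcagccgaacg
Prkacb: ggggcttgaccgCGTCActtccggcgcgcc
Dusp1: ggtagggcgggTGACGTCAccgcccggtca
Btg2: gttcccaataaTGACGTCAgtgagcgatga
Pcsk1: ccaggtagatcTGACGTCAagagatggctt
Scg2: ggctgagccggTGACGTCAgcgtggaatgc
Sst: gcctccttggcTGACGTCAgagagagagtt
Fos: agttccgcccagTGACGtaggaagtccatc
Junb: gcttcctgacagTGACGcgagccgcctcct
Egr2: tatgggcagcgaCGTCAcgggtattgaaga
Nr4a1: cccctctccatgCGTCAcggagcgcttaag

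The targets with the full element differed in their values. Dusp1, Btg2 and Pcsk1 were lower in HFD at an unadjusted p under 0.05, while Scg2 and Sst, with the same 8 bases, had log2 fold changes of -0.01 and 0.19. Fos and Nr4a1, with the core alone, had the larger falls given above. Prkar1a, the only pathway gene found with the full element, had a log2 fold change of -0.28, with CPM that ran with library depth.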

How the data were processed

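RNA-seq of LCM-dissected ARC from 3 NCD and 3 HFD samples was analysed. Per the labels, mRNA was enriched with oligo(dT) beads and libraries were made with a NEBNext Ultra kit. According to the methods, the authors cleaned NovaSeq6000 reads, compared them with ribosomal sequences using bowtie2, aligned them with HISAT2 and used StringTie and RSEM. The submitters' processing notes name mm10. Tool versions, annotation and strand setting are not given in the sources used here. The deposited count of each gene and sample was not normalized, and the authors computed the deposited FPKM per transcript length and mapped reads. The diets were read from the sample titles, which begin with C or H, and this was checked against the deposited group means, since the mean FPKM of the C columns matches the NCD mean. The 5 columns holding group means and the authors' own fold changes, p-values and FDR were not used in the tests. The group means served only for this check of the labels.

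Identifiers were matched to GENCODE M21 (GRCm38), and 55 of 22322 had no symbol. Counts were tested with edgeR 4.0.16 (R 4.3.3; filterByExpr, TMM, quasi-likelihood), diet being the only term, with Benjamini-Hochberg adjustment over 14188 genes at a threshold of 0.05, and the step was tested on simulated data. Intervals are 95%. Alternatives were DESeq2 1.42.0, limma 3.58.1 on log2(FPKM + 1) and log2(FPKM + 0.1), other scalings and filters, a replicate block, total count as a covariate, and each sample left out. Leaving out the deepest and the shallowest library together was chosen after seeing the data. The pathway genes and lists were chosen with earlier results of these data known. By rule every pathway gene is named by role. Values in every sample are given for genes with an unadjusted p under 0.05, for Creb1, Crem, Sik1, Pde4b and Pde4d, and for the most abundant gene of each role. Of the context lists, genes with an unadjusted p under 0.05 are named. Pomc, Agrp, Kiss1, Sim1, Crh, Sst, Scg2, Npas4, Id1, Sik2 and Prkar2b were added after their values were seen.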

Additional observations from a re-analysis of the deposited data

How the results depend on the processing

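edgeR called 8 of all genes at an adjusted p under 0.05, and other settings moved this count. It was 19 with DESeq2, 15 with every gene of at least 1 count tested or with log2 total count as a covariate, and 5 with limma on either FPKM scale. With 1 sample left out it ran from 1 (without NCD2, HFD1 or HFD2) to 16 (without NCD3). Pathway genes at an adjusted p under 0.05 numbered 1 with DESeq2, 1 with the covariate and 0 in the fits with a sample left out, and the called gene was Sik1. At an unadjusted p under 0.05, and likewise past 1.5-fold, 5 pathway genes were counted with every gene of at least 1 count tested (9.80%, against 2.68% of all genes at that p and 2.35% past the fold as well). The genes gained there were Adcy10 and Sik2. With a sample left out there were 2 to 5, the highest number being without NCD3 (11.1%, against 8.13% and 6.78% of all genes). Pathway genes whose diets did not overlap numbered 5 to 12 with 1 sample left out and 11 without both NCD1 and HFD3, as smaller groups overlap less often by construction. The 12 genes, without NCD3, were 26.7% of those tested, against 23.9% of all genes. The 11 without both NCD1 and HFD3 were 25.0%, against 27.6%. The shares were 25.0% against 19.0% without HFD2, 18.2% against 12.5% without NCD2 and 11.1% against 10.7% without HFD1. They were 11.4% against 13.2% without NCD1 and 13.3% against 14.7% without HFD3. Sik1 and Adcy8 were lower at an unadjusted p under 0.05 in all 16 alternatives, with log2 fold changes of -1.67 to -1.02 and -0.90 to -0.60. Adcy6 was higher in all 16 (0.44 to 0.89), but its p was over 0.05 with limma on log2(FPKM + 1), without NCD2, without HFD3, and without both NCD1 and HFD3. The 6 targets of CREB with an adjusted call were lower at an unadjusted p under 0.05 in all 16 alternatives. Other log2 fold changes beyond 0.25 that moved by over 1.5 times with 1 sample left out, without a sign change, ran from 0.49 to 0.89 for Adcy6, -0.44 to -0.20 for Prkar2b, 0.19 to 0.40 for Adcy5, 0.19 to 1.29 for Adcy4, 0.056 to 0.66 for Adcy1, -0.42 to -0.088 for Prkacb, 0.14 to 0.66 for Adcy9, 0.10 to 0.93 for Pde5a, 0.087 to 0.78 for Pde3b and -0.51 to -0.041 for Prkar1a.

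No sign change below belongs to a gene called in either fit, and the cause was not tested. Without the deepest and the shallowest library (NCD1 and HFD3), the values that changed sign were -0.20 for Adcy1, -0.023 for Adcy9, -0.035 for Pde5a, -0.012 for Pde3b, 0.26 for Adcy3, 0.15 for Prkar1a, 0.091 for Prkaca, -0.042 for Pde9a, -0.17 for Sik3, 0.030 for Pde4b, -0.022 for Pde7b, 0.19 for Pde11a, -0.011 for Adcy2, 0.22 for Pde2a, -0.15 for Pde7a, 0.24 for Prkar1b, 0.031 for Pde1c, -0.43 for Atf1, -0.038 for Prkar2a, -0.35 for Crtc3, 0.025 for Adcy7, -0.31 for Ep300 and -0.24 for Crebbp. With log2 total count as a covariate, the values that changed sign were -0.015 for Pde3b, 0.17 for Adcy3, 0.062 for Prkar1a, 0.029 for Prkaca, -0.052 for Sik3, 0.24 for Pde2a, 0.0031 for Pde8a, -0.15 for Pde7a, 0.18 for Prkar1b, -0.28 for Atf1, -0.035 for Prkar2a, -0.22 for Crtc3, 0.0021 for Adcy7, -0.23 for Ep300 and -0.15 for Crebbp. With limma on log2(FPKM + 1), the values that changed sign were -0.12 for Atf1, -0.034 for Pde4a, -0.0026 for Crtc3, -0.010 for Crtc2 and -0.047 for Ep300. With limma on log2(FPKM + 0.1), the values that changed sign were -0.15 for Atf1, -0.036 for Pde4a, -0.014 for Crtc3, -0.012 for Crtc2 and -0.058 for Ep300. With every gene of at least 1 count tested, the values that changed sign were -0.0022 for Crtc2, -0.00092 for Ep300 and -0.0055 for Crebbp. With 1 sample left out, the ranges of genes that changed sign in any such fit were -0.61 to 0.12 for Adcy3, -0.0064 to 0.32 for Pde9a, -0.016 to 0.39 for Sik3, -0.80 to 0.015 for Pde11a, -0.46 to 0.12 for Pde2a, -0.42 to 0.055 for Pde8a, -0.34 to 0.0038 for Pde3a, -0.15 to 0.016 for Pde8b, -0.049 to 0.20 for Crem, -0.075 to 0.38 for Pde7a, -0.27 to 0.13 for Prkar1b, -0.24 to 0.086 for Pde1c, -0.12 to 0.20 for Creb1, -0.17 to 0.086 for Pde10a, -0.11 to 0.16 for Pde1a, -0.33 to 0.26 for Atf1, -0.13 to 0.11 for Pde4a, -0.054 to 0.093 for Prkar2a, -0.28 to 0.21 for Crtc3, -0.095 to 0.083 for Adcy7, -0.068 to 0.11 for Crtc2, -0.17 to 0.17 for Ep300 and -0.14 to 0.10 for Crebbp.

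The sources used here do not say whether the replicate numbers pair the samples. The correlations of same-numbered deviations were -0.012, 0.11 and 0.37. NCD2 and NCD3 correlated best with the HFD sample of their own number, and NCD1 with HFD2. So few correlations cannot decide whether the samples are paired. The replicate block gave 17 calls over all genes and 1 pathway gene, Sik1, with an adjusted p of 0.04. With a replicate block, the values that changed sign were -0.017 for Atf1, -0.027 for Crtc3 and -0.00059 for Ep300. At these depths, 7 pathway genes had too few counts to be tested in the main fit.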

Other observations

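Crebbp had counts and FPKM values that disagreed. Its CPM was between 101 and 139 in all 6 samples, whereas its FPKM was 13.6 in NCD1 and 91.4 in HFD3. The CPM per FPKM, which depends on the transcript length assumed for the gene, went from 7.75 in NCD1 to 1.57 in HFD3, a 4.95-fold range, against a median of 1.06-fold over 14125 genes. Only 0.092% of those genes varied more. Adcy4, at 3.44-fold, and Pde11a, at 2.03-fold, also varied, each on a mean of fewer than 20 counts. Adcy8 varied by 1.01-fold and Adcy6 by 1.23-fold.

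Exons of 14 of the 51 pathway genes overlap another annotated gene, mostly on the opposite strand. They are Crem, Prkar1b, Sik2, Adcy2, Adcy3, Adcy6, Ep300, Pde2a, Pde3a, Pde5a, Pde6h, Pde7a, Pde8b and Pde9a. Ppp2r1b, which overlaps Sik2, had 488, 185 and 96 counts in NCD1 to NCD3 and 113, 167 and 52 in HFD1 to HFD3.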
